A study of Homo sapiens with 21 samples.

Results

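The comparison described here sets cells labelled HepG2 and treated with coumarin at 10 µM for 24 h against cells of the same label given 0 µM, with 3 libraries in each group. Its members are the 6 libraries whose columns in the count table carry those 2 doses, of 21 libraries in 7 groups, and all genes enter it. HepG2 is an established line from a human liver tumour, and coumarin is a plant benzopyrone that human liver oxidises mainly through the cytochrome P450 enzyme CYP2A6. All 7 groups (0, 0.001, 0.01, 0.1, 1, 10 and 100 µM) were washed and moved from medium with serum to serum-free DMEM, so the control libraries also come from serum-starved cells, and RNA was selected on oligo(dT) beads. The labels call the 3 libraries of a group biological replicates. The question is which transcripts differ at the second highest dose, and 2 further comparisons of the same 3 libraries that use no control library are given beside it: 10 µM against the 12 libraries at 0.001 to 1 µM, and 100 µM against 10 µM.

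Retinoic acid, made from vitamin A, switches on the genes that remove it, so the hydroxylases CYP26A1 and CYP26B1 and the retinol uptake receptor STRA6 are commonly read as a gauge of retinoid signalling. The transcription factor ATF4 raises serine synthesis, asparagine synthesis and tRNA synthetase genes when amino acids run short, and SREBP factors raise cholesterol and fatty acid synthesis genes when sterols run low. In liver, hepatocytes make most lipid and bind vitamin A for export while stellate cells store it, and retinoic acid response genes are used by many cell types.

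The defining products of hepatocytes were largely absent from these libraries. Of 18 secreted hepatocyte proteins, 10 (among them ALB, APOA1, TTR and SERPINA1) were at 0 counts in all 6 libraries, which allows up to 0.112 CPM in the smallest library (3 counts, counting error only), and the list summed to 2.20 to 2.37 CPM (counts scaled to library size) in control and 1.75 to 2.38 at 10 µM. The liver regulator HNF4A was at a mean of 0.0329 and 0.0122 CPM. The 12 hepatocyte transcription factors as a list summed to 14.6 to 17.2 CPM in control and 15.1 to 16.5 at 10 µM, and 3 of them were tested. Keratin 8 was at 2407 and 2472 CPM, and the type I collagen gene COL1A1 at 107 and 102. EPCAM of the epithelial list and PDGFRA of the mesenchymal list were at 0 in all 6 libraries. The label HepG2 is therefore used here as a label. Summed levels of 15 mesenchymal, 8 endothelial and 8 leukocyte markers overlapped between the groups (for instance 2009.6 to 2095 CPM in control and 1989 to 2142 at 10 µM for the mesenchymal list). Of 12 tested mesenchymal and 7 tested epithelial markers 1 each fell against control, FAP and KRT7, where 0.874% of all tested genes fell.

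Counts summed to 29953336, 29254566 and 29727205 in the control libraries and to 27437470, 26984563 and 43375429 at 10 µM. Control replicates 2 and 3 stood apart from the rest. An uncounted share, that is the part of each FPKM total beyond the summed gene counts, came to 3.91%, 8.03% and 8.17% in control replicates 1 to 3, 3.68%, 4.49% and 3.74% at 10 µM, and 1.04% to 5.43% over all 18 treated libraries. These 2 libraries also had the highest TMM scaling factors of the 21 (1.04 and 1.04) and the highest scores on the second principal component (19.9 and 18.4, with 8.16 for control replicate 1 and at most 11.0 elsewhere). The part of the uncounted share in the differences below was examined only by the refits named.

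Between 0 and 10 µM a small number of transcripts differed, mostly by little. Of 16699 genes tested, 437 (2.62%) passed an adjusted p of 0.05 in edgeR's quasi-likelihood test, 291 higher at 10 µM (1.74%) and 146 lower (0.874%). The median size of a called change was 0.21 on the log2 scale. Only 10 genes rose and 31 fell by 1.5-fold or more, and 5 rose and 11 fell by 2-fold or more. These 11 falls were all in genes under a mean of 1 CPM or with overlap between the groups. The rises were small changes of abundant transcripts (median log2 change 0.20, median control level 99.2 CPM, where that of all tested genes was 15.8), and the falls were larger (median log2 change -0.35). In 419 of the 437 genes the 3 libraries at 10 µM all lay on 1 side of the 3 controls. Over all tested genes, 8.86% lay wholly above the controls and 8.62% wholly below, whether or not they passed the test.

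The number of calls rested on single control libraries. Without control replicate 3 there were 92 (50 higher, 42 lower), without control replicate 2 there were 226, and without control replicate 1 there were 649. Leaving out 10 µM replicate 1, 2 or 3 gave 292, 268 or 263. Against control replicate 1 alone, a fit that assumes this library to vary like those of the other groups, 91 genes passed, and with the uncounted share as a covariate 120 did. Scaling by the upper quartile in place of TMM turned the split around, to 129 higher and 215 lower. The median of all genes was then -0.027 in place of 0.0031. RLE scaling gave 293 higher and 151 lower, and DESeq2 gave 401 and 171. The rises of small size below therefore depend on the scaling chosen, and are given on the TMM scale. The same 291 genes that were higher than control had a median log2 change of only 0.068 against the 12 libraries at 0.001 to 1 µM, and the 146 lower genes one of -0.18. For the lists and genes the results turn on, values against these 12 libraries are therefore given as well. WARS, MARS, HYOU1, KIF20A, UTP20, MT-RNR1 and TNFSF15, all described below, kept their calls whichever library was left out and lost them against control replicate 1 alone (edgeR adjusted p = 0.139, 0.112, 0.160, 0.0752, 0.0859, 0.0727 and 0.119).

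**Figure D1:**
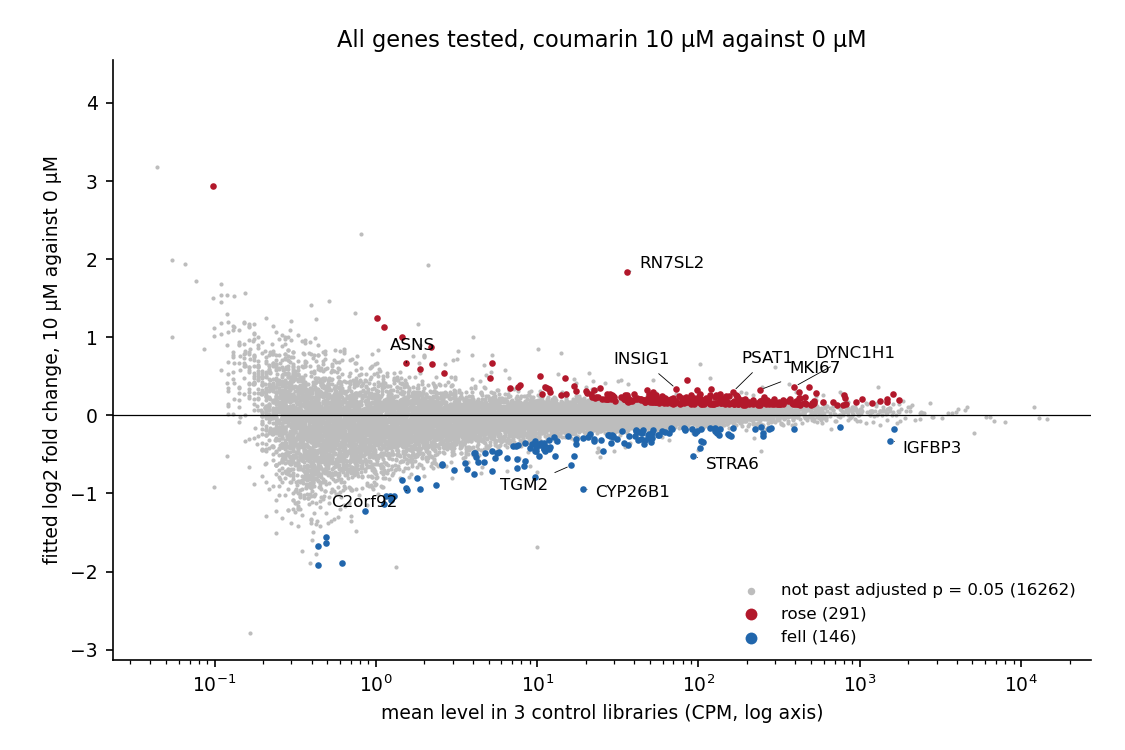
Fitted log2 fold change of 10 µM against 0 µM (vertical) against the mean control level in CPM (horizontal, log axis) for the 16699 genes tested. Red points are the 291 genes that rose, blue points the 146 that fell and grey points the rest. Most red points lie at high levels and close to 0.

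**Figure D2:**
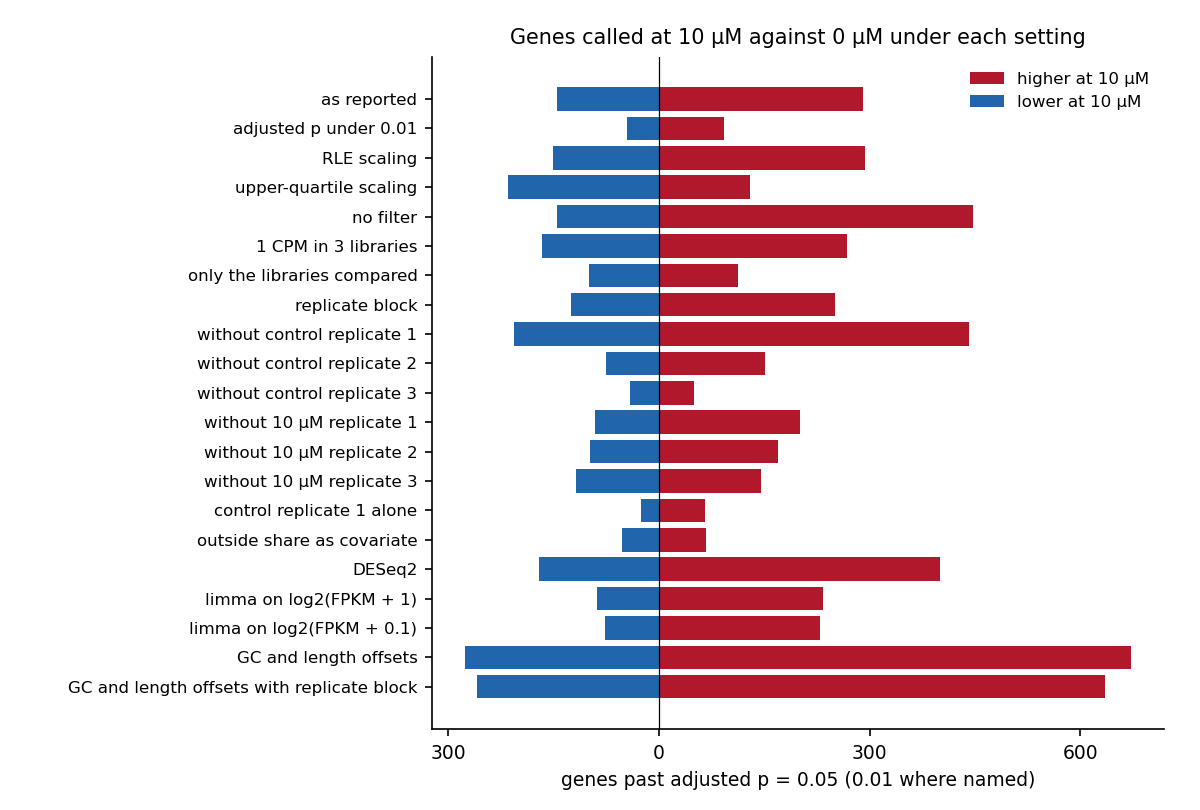
Genes past the threshold at 10 µM against 0 µM, higher (red, to the right) and lower (blue, to the left), as reported and under each alternative. The count runs from 91 with control replicate 1 alone to 948 with offsets for transcript GC content and length.

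Of the genes of retinoic acid handling 5 fell at 10 µM: CYP26B1, STRA6, TGM2, DHRS3 and RARRES1. Of 27 genes on the retinoid list 18 were tested, with 5 lower, 1 higher and 12 not called, against 0.874% lower and 1.74% higher among all tested genes. The list's median log2 change was -0.20, where that of all genes was 0.0031. The list had 5 or 6 falls whichever library was left out. Less RNA per cell and fewer cells carrying a transcript cannot be told apart in these bulk libraries.

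The window before CYP26A1, the sister gene of CYP26B1, shows a retinoic acid element in sequence. It is the 250 bases before a RefSeq start of the gene (chr10:93073643-93073892, plus strand, GRCh38.p14), 5′ to 3′ along the gene. Capitals mark a direct repeat of retinoic acid hexamers (any pair drawn from AGGTCA or AGTTCA or GGTTCA or GGGTCA on 1 strand, 2 or 5 bases apart, searched on both strands).
CYP26A1: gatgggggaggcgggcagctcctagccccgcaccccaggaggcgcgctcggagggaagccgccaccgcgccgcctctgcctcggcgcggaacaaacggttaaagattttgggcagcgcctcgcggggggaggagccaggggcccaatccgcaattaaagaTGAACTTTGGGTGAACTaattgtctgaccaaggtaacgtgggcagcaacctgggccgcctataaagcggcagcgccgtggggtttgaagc
The CYP26A1 window holds 1 such repeat, read on the opposite strand, which starts 90 bases before the start site. Of 20 list members with a window 2 held the repeat (10%), as did 0.128% of all 27305 genes with a window. Those of CYP26B1, STRA6, DHRS3 and RARRES1 held none, and TGM2 was not matched. GENCODE 29 starts some genes further upstream, so part or all of a window can be transcribed. All 250 bases of the CYP26A1 window lie inside the gene as annotated there. CYP26A1 has 2 windows, and that printed was chosen because it holds the repeat. A match is a description of the letters only, and nothing is drawn from its absence.

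CYP26B1, the hydroxylase that clears retinoic acid, was at 19.8, 18.6 and 19.2 CPM in the control libraries and at 9.45, 8.82 and 11.3 at 10 µM. All 3 treated libraries were low and the groups did not overlap. The gene (chr2:72129238-72148038, GRCh38) fell 1.92-fold, a log2 change of -0.94 (SE 0.083, edgeR adjusted p = 1.68e-09). At 0.001, 0.01, 0.1 and 1 µM its means were 21.9, 21.1, 19.7 and 18.5 CPM, beside a control mean of 19.2, and at 100 µM its mean was 5.38 ± 0.0575 CPM (SD, n = 3), below every library at 10 µM.

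STRA6, the cell surface receptor that takes up retinol, was at 88.1, 95.8 and 94.8 CPM in control and 66.2, 59.7 and 67.3 at 10 µM. It lies at chr15:74179466-74212267 and fell by 0.53 on the log2 scale (SE 0.051, edgeR adjusted p = 1.39e-08). TGM2, a transglutaminase gene long used as a retinoic acid target, went from 15.0, 16.2 and 17.6 to 10.5, 10.1 and 10.6 CPM, a log2 change of -0.64 (SE 0.075, edgeR adjusted p = 1.27e-06). In both genes the highest 10 µM library was below the lowest control.

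DHRS3, whose product turns retinaldehyde back into retinol, was at 108, 98.9 and 104 CPM in control and 83.3, 77.1 and 87.1 at 10 µM, with a log2 change of -0.33 (SE 0.049, edgeR adjusted p = 8.36e-05). RARRES1, named for its response to a retinoic acid receptor ligand, was at 8.12, 7.43 and 6.97 and 5.66, 4.48 and 4.16 CPM (-0.67 (SE 0.12, edgeR adjusted p = 0.00144)). These 5 genes kept their calls in all 19 alternatives. CYP26A1 was scarce, with 48, 54 and 42 reads in control and 26, 34 and 43 at 10 µM, and its log2 change of -0.58 did not pass (edgeR adjusted p = 0.149). Against the 12 lower-dose libraries it was at -0.65 (edgeR adjusted p = 0.0314), which passed. RDH11, a retinol dehydrogenase gene named here after its value was seen, was the only member that rose, from 63.4 to 70.8 CPM (log2 change 0.16, edgeR adjusted p = 0.0419), and no fit that left out 1 library called it.

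The 5 genes were also lower than at the lower doses, in a comparison without control libraries. Against the 12 libraries at 0.001 to 1 µM, 438 genes passed (2.62%), 121 higher (0.725%) and 317 lower (1.90%), and 7 of the 18 retinoid genes were among the lower. CYP26B1 was at -1.02 in that comparison, TGM2 at -0.62, STRA6 at -0.51, RARRES1 at -0.51 and DHRS3 at -0.35 on the log2 scale, with edgeR adjusted p of 3.69e-13, 1.03e-08, 8.55e-11, 0.00253 and 1.21e-07. In the same comparison 5 of 12 mesenchymal markers (median of the list -0.17), COL1A1 among them, and 3 of 7 epithelial markers (median -0.17), the keratins KRT7, KRT8 and KRT18, were lower too, and their part in the retinoid result was not tested. This reference has its own dependence: without 10 µM replicate 1 only 127 genes passed. From 10 to 100 µM, where 3051 genes differed (18.3%, 8.22% higher and 10.0% lower), 10 of the 18 were lower, among them TGM2 by a log2 change of -1.17 and STRA6 by -0.93.

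**Figure D3:**
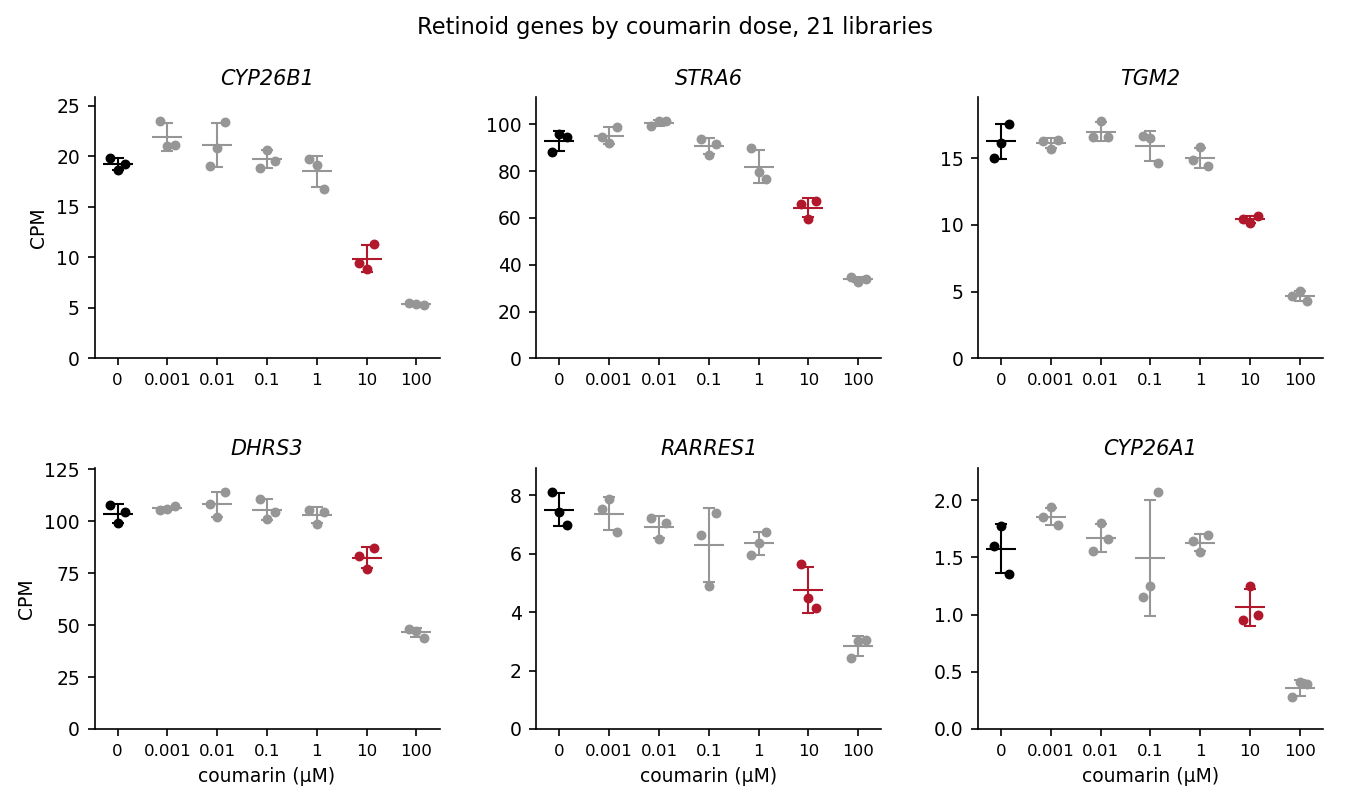
Levels of 6 retinoid genes in CPM (vertical, from 0) in each of the 21 libraries by coumarin dose (horizontal, not to scale). Points are libraries, horizontal dashes means and bars SD (n = 3), with control in black and 10 µM in red. In CYP26B1, STRA6, TGM2, DHRS3 and RARRES1 the 3 red points lie below the 3 black ones, and the 100 µM points lie lower still.

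A minority of amino acid synthesis genes rose at 10 µM. Of 17 tested genes of serine, glycine and one-carbon synthesis 4 rose and none fell (median log2 change 0.10), against 1.74% of all genes. PSAT1, the aminotransferase of the serine pathway, was at 168, 163 and 161 CPM in control and 194, 211 and 201 at 10 µM, and the groups did not overlap. It lies at chr9:78297143-78330093, and its log2 change of 0.30 (SE 0.039, edgeR adjusted p = 7.33e-06) was called in all 19 alternatives. Against the 0.001 to 1 µM libraries it was at 0.24 (edgeR adjusted p = 1.26e-06).

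The other 3 rises of that list each depended on single libraries. ASNS, the asparagine synthetase gene, went from 1.40, 1.55 and 1.68 to 2.41, 2.50 and 2.47 CPM, with every 10 µM library above every control (1.59-fold, edgeR adjusted p = 0.0250), and lost its call without control replicates 1, 2 or 3 or 10 µM replicates 1, 2 or 3 (edgeR adjusted p of 0.0550 to 0.0840). PHGDH, the first enzyme of serine synthesis, rose by a log2 change of 0.16 (from 231 to 257 CPM) and lost its call without control replicates 2 or 3 or 10 µM replicate 3 (edgeR adjusted p of 0.141 to 0.212). GOT1, an aspartate aminotransferase gene, rose by 0.17 and lost its call without control replicates 2 or 3 or 10 µM replicates 2 or 3 (edgeR adjusted p of 0.139 to 0.261). Without control replicate 2 or 3 or 10 µM replicate 3 the list had 1 rise, that of PSAT1.

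The window before ASNS shows the C/EBP-ATF element through which that gene is known to answer amino acid shortage. It is chr7:97872409-97872658, minus strand, and capitals mark TGATGNAAN, searched on both strands.
ASNS: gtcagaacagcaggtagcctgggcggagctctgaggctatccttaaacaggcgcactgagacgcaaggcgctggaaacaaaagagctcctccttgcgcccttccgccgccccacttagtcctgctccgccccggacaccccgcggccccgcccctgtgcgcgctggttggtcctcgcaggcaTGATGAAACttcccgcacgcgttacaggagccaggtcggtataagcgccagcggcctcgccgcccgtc
The element starts 68 bases before the start site. It was found in 4 of 15 serine list members with a window, 5 of 19 of the ATF4 list and 3 of 16 synthetases, and in 3.87% of all genes with a window. It stood in 2 of the 4 called serine list members with a window, 0 of 1 of the ATF4 list and 2 of 8 synthetases. The windows of PSAT1 and of the synthetase genes WARS and MARS did not hold it.

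Among 22 tested genes of the ATF4 stress response 2 rose and none fell (median 0.082), against 1.74% and 0.874% of all genes. NUPR1, a small stress-induced nuclear protein gene, was at 46.7, 43.9 and 42.1 and 52.3, 48.6 and 51.2 CPM (0.20 (SE 0.049, edgeR adjusted p = 0.0204)), and PCK2, the mitochondrial phosphoenolpyruvate carboxykinase gene, rose by 0.17 (edgeR adjusted p = 0.0438). NUPR1 lost its call without control replicates 2 or 3 or 10 µM replicates 1 or 3 (edgeR adjusted p of 0.0829 to 0.191) and PCK2 without control replicates 2 or 3 or 10 µM replicates 1, 2 or 3 (edgeR adjusted p of 0.0504 to 0.291). From 10 to 100 µM, 20 of the 22 were higher, against 8.22% of all genes, PCK2 by 1.28 and NUPR1 by 1.13.

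Cytosolic aminoacyl-tRNA synthetases load amino acids onto tRNA. They rose in 9 of 20 cases with none lower (median 0.14), against 1.74% higher among all genes. WARS, for tryptophan, was at 156, 142 and 145 CPM in control and 171, 176 and 179 at 10 µM (0.25 (SE 0.037, edgeR adjusted p = 0.000103)). MARS, for methionine, went from 119 to 143 CPM (0.27, edgeR adjusted p = 0.000434). The genes for alanine and glycine, AARS and GARS, rose by 0.22 and 0.20 and lost their calls without control replicate 3 (edgeR adjusted p = 0.0549 and 0.0650). The list had 2 rises without control replicate 3, 11 without control replicate 1, 2 with the covariate and 0 against control replicate 1 alone. Against the 0.001 to 1 µM libraries 8 of the 20 were higher (0.725% of all genes), with WARS at 0.13 and MARS at 0.13. Of 13 amino acid transporters 0 passed by edgeR (3 at an unadjusted p under 0.05, 1 called by DESeq2, 2 called by edgeR without control replicate 1), and the smallest p belonged to SLC3A2 at 0.14 (edgeR adjusted p = 0.0605).

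**Figure D4:**
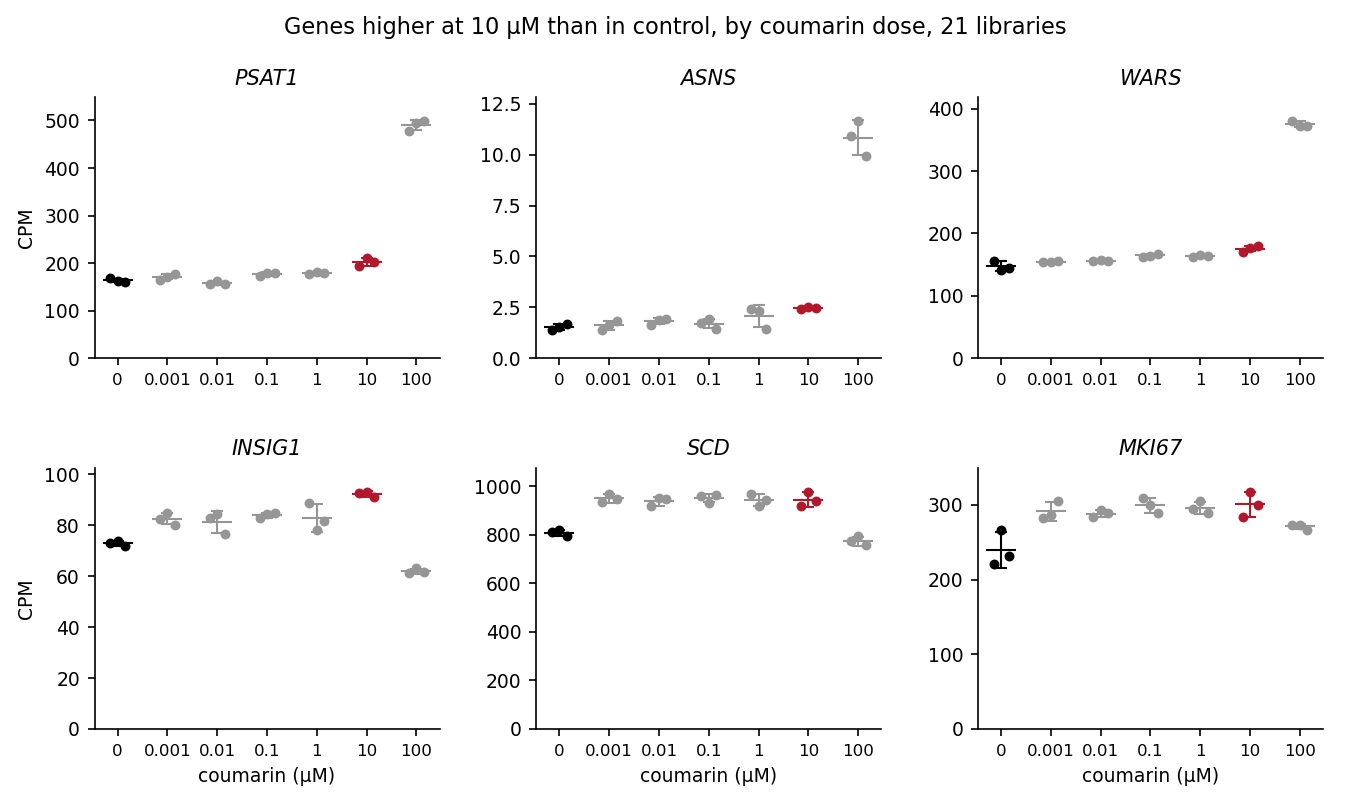
Levels of 6 genes that rose at 10 µM against control, in CPM (vertical, from 0), in each of the 21 libraries by dose (horizontal, not to scale). Points, dashes and bars as for the retinoid genes. PSAT1, ASNS and WARS are higher again at 100 µM, and INSIG1 and SCD are lower there. MKI67, SCD and INSIG1 have means above the control mean at every dose from 0.001 to 10 µM.

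Some sterol synthesis genes rose at 10 µM. Of 25 tested genes of cholesterol synthesis and uptake 8 rose, 17 did not pass and none fell (median 0.14). Over all tested genes 1.74% rose. INSIG1, the endoplasmic reticulum protein that holds back SREBP processing and is itself a target of it, was at 73.2, 73.7 and 71.9 CPM in control and 92.7, 93.2 and 91.1 at 10 µM. The gene (chr7:155297776-155310235) had a log2 change of 0.34 (SE 0.045, edgeR adjusted p = 1.26e-05) and was called in all 19 alternatives. Its means at 0.001 to 1 µM lay between, at 82.5, 81.3, 84.0 and 82.9 CPM, and the 10 µM group was 0.16 above them (edgeR adjusted p = 0.00582). At 100 µM INSIG1 was at 61.9 ± 1.02 CPM (SD, n = 3), -0.58 from the 10 µM level.

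The window before INSIG1 is chr7:155297628-155297877, plus strand, with CCAAT boxes, the letters bound by NF-Y, in capitals on either strand.
INSIG1: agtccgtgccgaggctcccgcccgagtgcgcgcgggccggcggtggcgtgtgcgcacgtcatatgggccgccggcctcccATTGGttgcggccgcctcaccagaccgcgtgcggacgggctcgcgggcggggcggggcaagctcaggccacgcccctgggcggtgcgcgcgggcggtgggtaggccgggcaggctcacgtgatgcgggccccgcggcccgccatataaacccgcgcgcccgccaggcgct
A CCAAT box stood in 16 of 18 cholesterol genes with a window and in 37.0% of all genes with one. The sterol element letters CACCCCAC stood in 1 of the 18, and in 2.97% of all.

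FDFT1, for squalene synthase, rose by 0.16, and ACAT2, the acetoacetyl-CoA thiolase gene, by 0.20. FDFT1 lost its call without control replicates 2 or 3 or 10 µM replicates 1 or 3 (edgeR adjusted p of 0.0651 to 0.200) and ACAT2 without control replicates 2 or 3 (edgeR adjusted p of 0.0752 to 0.123). The list had 1 rise without control replicate 3, with the covariate and in the fit whose sole control was replicate 1, 2 without control replicate 2, 3 without 10 µM replicate 1 or 3, and 3 with upper-quartile scaling. Against the 0.001 to 1 µM libraries 3 of 25 were higher, and from 10 to 100 µM 19 were lower and none higher. Over all tested genes 0.725% were higher in the former comparison and 10.0% lower in the latter.

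Fatty acid synthesis genes rose in 3 of 17 cases, against 1.74% of all genes. SCD, the desaturase that makes oleate, was at 811, 822 and 796 CPM in control and 919, 979 and 939.6 at 10 µM (0.22 (SE 0.037, edgeR adjusted p = 0.000353)), and ACACA, for acetyl-CoA carboxylase, went from 172 to 206 CPM (0.26 (SE 0.040, edgeR adjusted p = 0.000167)). Both were called in all 19 alternatives. Neither differed from the 0.001 to 1 µM libraries by the test, where SCD was at -0.0013 and ACACA at 0.023 (edgeR adjusted p = 0.993 and 0.821). ACLY, for ATP citrate lyase, rose by 0.16 and lost its call without control replicates 2 or 3 or 10 µM replicates 2 or 3 (edgeR adjusted p of 0.0564 to 0.181).

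Among 30 tested genes of mitosis 5 rose and 25 did not pass, where 1.74% of all genes rose. All 30 had a log2 change above 0 (median 0.11), while 8519 of the 16699 genes had a change above 0. MKI67, the gene of the proliferation antigen Ki-67, was at 222, 267 and 232 CPM in control and 284, 318 and 299.9 at 10 µM, and every 10 µM library was above the highest control. It lies at chr10:128096659-128126385, and its log2 change of 0.32 (SE 0.049, edgeR adjusted p = 0.000103) was called in all 19 alternatives. Its means at 0.001, 0.01, 0.1 and 1 µM were 291, 288, 299.5 and 296 CPM, and against those 12 libraries the change was 0.033 (edgeR adjusted p = 0.771).

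The window before MKI67 is chr10:128126424-128126673, minus strand, and capitals mark TTTGAA, a cell cycle homology region letter string, on either strand.
MKI67: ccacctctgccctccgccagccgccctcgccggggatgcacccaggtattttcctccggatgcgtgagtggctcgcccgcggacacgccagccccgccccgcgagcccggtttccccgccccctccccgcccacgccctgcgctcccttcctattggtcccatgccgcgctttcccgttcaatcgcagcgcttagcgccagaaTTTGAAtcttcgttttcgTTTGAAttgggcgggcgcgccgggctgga
The 2 matches start 47 and 29 bases before the start site. TTTGAA stood in 15 of 25 mitosis genes with a window and in 16.1% of all, a CCAAT box in 21 of 25 and in 37.0% of all. The called mitosis genes with a window were MKI67, KIF20A and CCNB1. Only MKI67 of these 3 held TTTGAA, and all 3 held a CCAAT box.

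KIF20A, a kinesin of cytokinesis, rose from 136 to 156 CPM (0.20 (SE 0.040, edgeR adjusted p = 0.00411)). AURKA, a spindle kinase, rose by 0.20 and CCNB1, cyclin B1, by 0.17. AURKA lost its call without control replicate 3 or 10 µM replicate 3 (edgeR adjusted p of 0.0749 to 0.103) and CCNB1 without control replicates 2 or 3 or 10 µM replicate 1 (edgeR adjusted p of 0.0634 to 0.0720). The mitosis list had 2 rises without control replicate 3 and 11 with offsets for GC content and length. Of the 30, 1 was higher than in the 0.001 to 1 µM libraries (0.725% of all tested genes), AURKA at 0.12 (edgeR adjusted p = 0.0401). KIF20A at 0.077 and CCNB1 at 0.098 did not pass there (edgeR adjusted p = 0.215 and 0.0605). From 10 to 100 µM 14 of the 30 were lower and none higher, against 10.0% lower among all genes. Of 30 DNA replication genes 0 passed by edgeR, 3 were at an unadjusted p under 0.05 and DESeq2 called 1, with the smallest p for POLA1 (0.15, edgeR adjusted p = 0.0501). Of 19 regulators of G1, CCNE1, cyclin E1, was the only call, at 2.24, 2.01 and 1.42 and 2.70, 2.61 and 3.12 CPM (0.59 (SE 0.17, edgeR adjusted p = 0.0460)), and it lost it without control replicates 2 or 3 or 10 µM replicates 1, 2 or 3 (edgeR adjusted p of 0.0677 to 0.327).

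Protein folding, degradation and ribosome assembly genes rose in part. For the lists in this paragraph and the next, the share of all tested genes that rose was 1.74%. Of 18 endoplasmic reticulum chaperone genes 5 rose, led by HYOU1, a large HSP70-type chaperone, at 182, 169 and 171 CPM in control and 201, 208 and 210.2 at 10 µM (0.25 (SE 0.040, edgeR adjusted p = 0.000263)). The lectin chaperones CANX and CALR and the disulfide isomerase PDIA4 were at 0.16, 0.17 and 0.15, and lost their calls without control replicate 3 or 10 µM replicate 2 (edgeR adjusted p of 0.0838 to 0.0983), without control replicates 2 or 3 or 10 µM replicates 1, 2 or 3 (edgeR adjusted p of 0.0547 to 0.212) and without control replicates 2 or 3 or 10 µM replicates 2 or 3 (edgeR adjusted p of 0.0969 to 0.254). That list had 1 rise without control replicate 3 or 10 µM replicate 2. None of the 18 passed by edgeR against the 0.001 to 1 µM libraries (0 calls, median 0.010, beside 0.070 against control), with HYOU1 at 0.049, CANX at 0.019, CALR at -0.0059 and PDIA4 at 0.0030. Among 26 proteasome genes PSMD1, of the regulatory particle, rose by 0.24 (SE 0.037, edgeR adjusted p = 0.000118) in all 19 alternatives, and PSMB2, of the core, by 0.20, lost without control replicates 2 or 3 or 10 µM replicate 2 (edgeR adjusted p of 0.0576 to 0.0964). Without control replicate 1 the list had 11 rises, and 1 without control replicate 2 or 3. Of the 26, 2 were higher than in the 0.001 to 1 µM libraries (0.725% of all tested genes), with PSMD1 at 0.13 (edgeR adjusted p = 0.00749).

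UTP20, a factor of small ribosomal subunit assembly, went from 49.7 to 60.3 CPM (0.28 (SE 0.047, edgeR adjusted p = 0.000533)), and the nucleolar NOLC1 rose by 0.14, a call lost without control replicates 2 or 3 or 10 µM replicate 2 (edgeR adjusted p of 0.121 to 0.214). They were the 2 rises among 20 ribosome biogenesis genes, which had 1 to 5 without 1 library. Of the 20, 1 was higher than in the 0.001 to 1 µM libraries (0.725% of all tested genes). UTP20 was at 0.12 there (edgeR adjusted p = 0.0637). Of 43 ribosomal protein genes 0 passed by edgeR (15 at an unadjusted p under 0.05, 7 called by DESeq2, 1 by limma and 9 by edgeR without control replicate 1), and the list's median was 0.061. Of 15 heat shock genes 2 rose, HSPA9 of mitochondria by 0.15 and HSP90AA1 of the cytosol by 0.20. HSPA9 lost its call without control replicates 2 or 3 or 10 µM replicate 2 (edgeR adjusted p of 0.0919 to 0.125) and HSP90AA1 without control replicates 2 or 3 or 10 µM replicates 1 or 2 (edgeR adjusted p of 0.0813 to 0.131), and the list had 0 to 6 rises without 1 library.

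Respiratory chain genes passed in both directions, 3 of 32 higher and 1 lower, where the shares of all tested genes were 1.74% and 0.874%. The list leaned up, with 25 of 32 changes above 0 and a median of 0.094. The complex I genes NDUFS3 and NDUFB9 and the ATP synthase gene ATP5PO rose by 0.19, 0.17 and 0.22, and lost their calls without control replicates 2 or 3 or 10 µM replicates 1, 2 or 3 (edgeR adjusted p of 0.0502 to 0.213), without control replicates 2 or 3 or 10 µM replicates 1 or 3 (edgeR adjusted p of 0.0639 to 0.164) and without control replicates 2 or 3 or 10 µM replicates 1, 2 or 3 (edgeR adjusted p of 0.0838 to 0.234). Leaving out 1 library gave 0 to 7 rises on this list. NDUFS7, also of complex I, fell by 0.33 and lost its call without control replicate 1 or 10 µM replicate 2 (edgeR adjusted p of 0.0603 to 0.0974). Of 13 mitochondrially encoded protein genes 0 passed by edgeR, in any fit without 1 library or by DESeq2 or limma, and 1 was at an unadjusted p under 0.05. A fit of only the 6 libraries compared called MT-ATP8, of ATP synthase, higher (log2 change 0.44, edgeR adjusted p = 0.264 in the reported fit and 0.000126 in that one). Of the 13, 2 were lower than in the 0.001 to 1 µM libraries, where 1.90% of all tested genes were lower, and the list's median was -0.21. The mitochondrial ribosomal RNA MT-RNR1 rose from 1599.6 to 1940.0 CPM (0.28 (SE 0.047, edgeR adjusted p = 0.000533)), in libraries selected for poly(A), and was at 0.19 against 0.001 to 1 µM (edgeR adjusted p = 0.00173). In the urea cycle list ASS1, argininosuccinate synthase, was the 1 rise of 7 (0.18, edgeR adjusted p = 0.0176), lost without control replicates 2 or 3 or 10 µM replicate 3 (edgeR adjusted p of 0.0693 to 0.173).

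**Figure D5:**
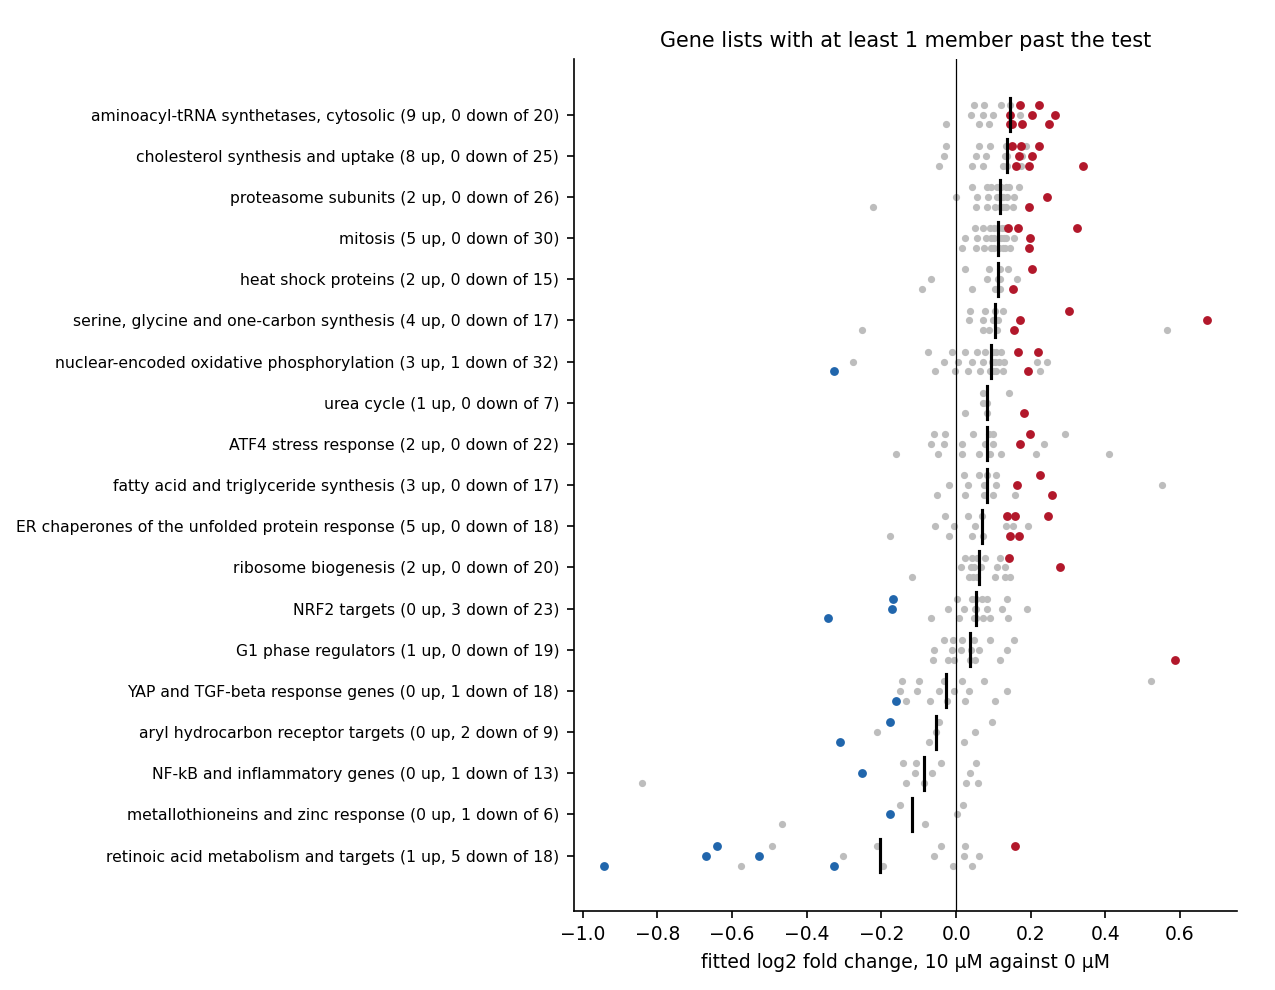
Fitted log2 fold changes at 10 µM against 0 µM (horizontal) of the tested members of each gene list with at least 1 call (rows). Red points rose, blue points fell, grey points did not pass, and the black bar is the list's median. The retinoid list has the lowest median, -0.20, and the synthetase list the highest, 0.14.

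Genes of foreign compound handling and the aryl hydrocarbon receptor were lower or did not pass the test. The receptor binds planar aromatic ligands and switches on CYP1A1 and ALDH3A1. ALDH3A1, an aldehyde dehydrogenase gene, was at 51.6, 43.4 and 45.6 CPM in control and 37.7, 37.1 and 38.4 at 10 µM (-0.31 (SE 0.054, edgeR adjusted p = 0.000671)), a call kept in all 19 alternatives. From 10 to 100 µM it was lower by a further log2 change of -1.39. AHRR, the receptor's repressor and its target, fell by 0.18 (edgeR adjusted p = 0.0145) and lost its call without control replicates 2 or 3 or 10 µM replicate 1 (edgeR adjusted p of 0.0555 to 0.152). These were the 2 falls among 9 tested genes of the list, against 0.874% of all tested genes. CYP1A1 was scarce, with 22, 25 and 35 reads in control and 33, 16 and 34 at 10 µM (edgeR adjusted p = 0.928). CYP2A6, the coumarin hydroxylase, had 0 to 4 reads per library and CYP3A4 had 0 in all 6, so neither was tested.

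Among 23 targets of the oxidant sensor NRF2, 3 fell and none rose, against 0.874% and 1.74% of all tested genes. Most members leaned the other way, with 18 of 23 changes above 0 and a median of 0.052. Leaving out 1 library gave 2 or 3 falls and 0 to 2 rises. ABCC3, an export pump for conjugates, was at 49.4, 51.2 and 51.3 and 41.1, 39.9 and 38.9 CPM (-0.34 (SE 0.047, edgeR adjusted p = 2.85e-05)), a call kept in all 19 alternatives. AKR1C1, a ketosteroid reductase gene, fell by 0.17 (edgeR adjusted p = 0.00970) and lost its call in a fit of only the 6 libraries compared (edgeR adjusted p = 0.0745), and its reads could be split with its near-identical family members. FTH1, ferritin heavy chain, fell by 0.17, a call lost without control replicates 1 or 3 or 10 µM replicates 1 or 3 (edgeR adjusted p of 0.0522 to 0.181). NQO1, the usual NRF2 marker, stood at 692 and 702 CPM (log2 change 0.022, edgeR adjusted p = 0.847). VKORC1, the target of warfarin, was at 27.8 and 25.4 CPM (-0.13, edgeR adjusted p = 0.325), and 0 of 12 vitamin K genes passed by edgeR or DESeq2 (1 at an unadjusted p under 0.05). SLC30A1, the zinc exporter gene, was the 1 fall among 6 metallothionein and zinc genes (-0.18, edgeR adjusted p = 0.0477), lost without control replicates 1, 2 or 3 or 10 µM replicates 1 or 3 (edgeR adjusted p of 0.0624 to 0.221).

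Several secreted and surface protein genes fell. IGFBP3, the main carrier of insulin-like growth factors, had the largest fall in CPM of the genes named, from 1571, 1497 and 1575 CPM to 1344, 1170.5 and 1196 (-0.32 (SE 0.051, edgeR adjusted p = 0.000221)). C1QTNF6, of the C1q and TNF related family, was at 251, 251 and 250.3 and 208, 209 and 210.1 CPM (-0.26 (SE 0.037, edgeR adjusted p = 4.32e-05)). IER3, an early response gene, went from 135 to 113 CPM (-0.25 (SE 0.044, edgeR adjusted p = 0.000684)). It was the 1 fall of 13 tested in the NF-kB list, where 0.874% of all tested genes fell. These 3 genes kept their calls in all 19 alternatives, and each was also lower than in the 0.001 to 1 µM libraries (-0.25, -0.28 and -0.15).

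TNFSF15, a TNF family ligand, fell by 0.52 (from 16.9 to 11.8 CPM, edgeR adjusted p = 4.32e-05), and BDKRB2, a bradykinin receptor gene, was at -0.60 (edgeR adjusted p = 0.00536), lost without control replicate 3 (edgeR adjusted p = 0.0796). TGFBI, a matrix protein induced by TGF-beta, fell by 0.16 and KRT7, keratin 7, by 0.15. TGFBI lost its call without control replicates 2 or 3 or 10 µM replicate 3 (edgeR adjusted p of 0.0555 to 0.0872) and KRT7 without control replicates 1 or 3 or 10 µM replicates 1 or 2 (edgeR adjusted p of 0.0603 to 0.119). Against the 12 lower-dose libraries TGFBI was at -0.29 and KRT7 at -0.17, and both passed (edgeR adjusted p = 5.48e-08 and 0.000877). KRT7 overlaps an antisense gene, and reads of the 2 cannot be told apart where the counting took no account of strand, which is not stated.

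Large folds were also measured in scarce or repetitive transcripts. RN7SL2, a 7SL signal recognition particle RNA, was at 30.1, 31.5 and 46.0 CPM in control and 156, 93.7 and 134 at 10 µM (1.84 (SE 0.37, edgeR adjusted p = 0.0178)), a call lost without control replicates 2 or 3 or 10 µM replicates 1 or 3 (edgeR adjusted p of 0.0536 to 0.0775). It has near-identical copies, among them RN7SL3, and it carries no poly(A) tail as a mature RNA. The pseudogenes UBE2V1P2 and ENSAP2 rose by 1.14 and 1.25 from 1.12 and 1.02 CPM. Both lost their calls with the covariate (edgeR adjusted p = 0.0984 and 0.0988). ENSAP2 also lost its call without control replicate 3 or 10 µM replicate 3 (edgeR adjusted p of 0.0576 to 0.0770). Among coding genes of at least 1 CPM the largest falls were C2orf92 at -0.96, CYP26B1, DCST1 at -0.94 and SSTR2, a somatostatin receptor gene, at -0.93. C2orf92, DCST1 and SSTR2 had 1.55, 1.87 and 1.54 CPM in control. They lost their calls without control replicates 2 or 3 or 10 µM replicates 1, 2 or 3 (edgeR adjusted p of 0.0550 to 0.260), without control replicates 2 or 3 or 10 µM replicate 3 (edgeR adjusted p of 0.0519 to 0.0933) and without control replicates 2 or 3 or 10 µM replicates 2 or 3 (edgeR adjusted p of 0.111 to 0.195).

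Noncoding genes AC015813.1 and DNAH17-AS1 fell at higher levels. AC015813.1 was at 8.39, 9.77 and 11.1 and 5.84, 5.59 and 5.52 CPM (-0.79 (SE 0.11, edgeR adjusted p = 5.13e-05)). DNAH17-AS1 was at 89.2, 106 and 113 and 75.0, 77.4 and 78.7 CPM (-0.42 (SE 0.058, edgeR adjusted p = 5.13e-05)), and it lies antisense to DNAH17, so its reads carry the same limit as those of KRT7. Neither lost its call with 1 library left out, and both lost it against control replicate 1 alone (edgeR adjusted p = 0.0874 and 0.164). Against the 0.001 to 1 µM libraries they were at -0.32 and -0.100 and did not pass (edgeR adjusted p = 0.0588 and 0.299).

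Other coding genes with large rises were IGFN1 at 0.50, MN1 at 0.39, FAT4, an atypical cadherin, at 0.38, and DYNC1H1, the heavy chain of cytoplasmic dynein, at 0.37. DYNC1H1 went from 389, 427 and 365 CPM to 477, 525 and 519.7 (edgeR adjusted p = 0.000456), a call lost with the covariate (edgeR adjusted p = 0.0522). IGFN1 and FAT4 kept their calls in all 19 alternatives, while MN1 lost its without control replicates 1 or 3 or 10 µM replicates 1 or 3 (edgeR adjusted p of 0.0532 to 0.0806). Against the 0.001 to 1 µM libraries the changes were 0.100, 0.13, 0.056 and 0.011, and none passed (edgeR adjusted p of 0.605, 0.458, 0.702 and 0.947).

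Some genes stood apart from the 12 lower-dose libraries. Among the higher were SLC9B2, a sodium/proton exchanger gene, at 0.27, XAGE2, a cancer testis antigen gene, at 0.24, and PAK1IP1, a ribosome assembly factor, at 0.23 (edgeR adjusted p = 0.000781, 0.000664 and 0.000473), beside PSAT1 and NUPR1. Among the lower, BDKRB2 was at -0.61 and the lysyl oxidase family gene LOXL4 at -0.54 (edgeR adjusted p = 0.000355 and 0.0448), beside CYP26B1, TGM2 and STRA6.

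In 14 of the 33 pathway lists 0 members passed by edgeR. Over the 247 different genes on them 42 were at an unadjusted p under 0.05, DESeq2 called 11, limma on log2(FPKM + 1) called 2 and edgeR on only the 6 libraries compared called 10. Besides those already given, they were p53 targets (19 tested, median -0.021), interferon-induced genes (18, -0.072), immediate early genes (19, 0.048), ERK feedback genes (12, -0.070), BCL2 family (15, -0.021), glycolysis and hypoxia targets (24, 0.046), replication-dependent histones (14, 0.073), snoRNA host genes (14, -0.014) and drug-oxidising P450 genes (3, 0.0036). Without 1 library, single calls appeared in the BCL2, glycolysis and histone lists. The p53 targets MDM2 and CDKN1A were at -0.16 and 0.15 (edgeR adjusted p = 0.110 and 0.0740), and both were called with offsets for GC content and length (edgeR adjusted p = 0.0290 and 0.00409). The immediate early gene FOS was at 0.42 (edgeR adjusted p = 0.130) and was called in the fit of only the 6 libraries compared (edgeR adjusted p = 0.00319), and limma called KLF6 of the same list. In tests on simulated libraries of this comparison, 46% of genes changed 1.25-fold and 86% of those changed 2-fold were recovered, so a small change in these lists could have been missed. The changed genes were picked at random from all tested genes. Their counts were drawn independently, without the deviations of control replicates 2 and 3, so the shares may differ for these lists and libraries.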

How the data were processed

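Polyadenylated RNA of cells labelled HepG2 was sequenced after 24 h with 7 doses of coumarin. The authors deposited raw counts per gene as whole numbers for each of 21 libraries, and a second table of FPKM, which divides the counts by gene length and by a total per library. HISAT2, DESeq2 and GRCh38 appear in the submitters' processing notes, with no versions. No source used here names the counter or its strand setting. GENCODE 29 holds each of the 58735 gene identifiers at the same coordinates.

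Libraries were grouped by the dose in their titles. The filter filterByExpr of edgeR 4.0.16 (R 4.3.3) left 16699 genes. After TMM scaling, 1 robust quasi-likelihood F fit took in the 21 libraries (14 residual degrees of freedom). P-values were two-sided and adjusted over all genes (Benjamini-Hochberg), with a threshold of 0.05 behind "rose", "fell" and "called". CPM use TMM-scaled library sizes. Replicates varied by 4.49% (common biological coefficient of variation). The uncounted share was computed from counts, lengths and FPKM (genes of at least 20 reads), and whether it holds reads or a scaling of the total was not tested.

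The comparison, the 39 gene lists and the rule for naming genes were chosen with earlier results of these data known. Named are, of genes that passed at 1 CPM or more without overlap between groups, the 8 largest rises and falls among coding genes, the 8 smallest p, the 5 largest CPM differences and 3 noncoding genes each way, the 6 largest each way against 0.001 to 1 µM, up to 4 called members of each list (2 where none passed), and CYP2A6, CYP1A1, CYP3A4, VKORC1, NQO1, CYP26A1 and CYP26B1. A gene that this rule names is not reported here. Lists are described by counts and medians.

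Alternatives were upper-quartile or RLE scaling, testing all genes or those at 1 CPM in 3 libraries, fitting only the libraries compared, the replicate number as a block, each library left out, an adjusted p under 0.01, DESeq2 1.42.0, limma 3.58.1 on log2 of FPKM plus 1 or 0.1, control replicate 1 alone, and the uncounted share as a covariate. Offsets for each library's trend with GC content and transcript length were added after seeing the data. On simulated data, 46%, 66%, 86% and 94% of genes changed 1.25, 1.5, 2 and 4-fold were recovered, with 6 unchanged genes called among 16485. Promoter windows come from RefSeq (GRCh38.p14), matched by symbol for 11242 of the 16699 tested genes. Counting intervals and floors cover counting error only.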

Additional observations from a re-analysis of the deposited data

How the results depend on the processing

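For 10 µM against 0 µM, where 437 genes passed, the count was 138 at an adjusted p under 0.01, 213 in a fit of only the libraries compared, 91 against control replicate 1 alone, 120 with the uncounted share as a covariate, 948 with GC and length offsets and 895 with those offsets and the replicate block. Leaving out 1 library gave 92 (without control replicate 3) to 649 (without control replicate 1). No cause of these differences was tested. RLE scaling, upper-quartile scaling, no filter, the 1 CPM filter, DESeq2 and limma stayed within 1.5 times the reported count. Of 82 called genes that the text could name, 18 were called in all 19 alternatives and 33 whichever library was left out, and none changed sign. Against 0.001 to 1 µM, where 438 passed, the count was 166 at an adjusted p under 0.01, 273 and 268 with limma on log2 of FPKM plus 1 and 0.1, and 127 (without 10 µM replicate 1) to 549 (without 10 µM replicate 3) with 1 library left out. For 100 µM against 10 µM, where 3051 passed, it was 1825 at an adjusted p under 0.01. A fit to control replicate 1 alone has 1 control library, and the covariate follows the groups, so a lost call there does not show an absent change.

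The replicate number as a block gave 376, 363 and 2951 calls in the 3 comparisons. It kept 76 of the 82 calls that the text could name and ended 6, with GOT1, PCK2, PDIA4, CCNE1 and SLC30A1 among them (edgeR adjusted p = 0.0550, 0.0548, 0.0530, 0.0580 and 0.0590). The deviations of same-numbered control and 10 µM libraries from their group means had correlations of -0.000994, 0.0515 and 0.0164 across genes, so the numbers were not taken to pair the libraries.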

Other observations

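The sets of genes called in the 2 comparisons of the 10 µM libraries differed in base composition. Transcripts higher than in control had a median GC content of 48.3% and those lower 50.6%, beside 48.4% over all tested genes. Those lower than in the 12 libraries at 0.001 to 1 µM had a median of 57.6% and a median length of 4319 bases, and those higher 44.8% and 2653 bases, where all tested genes had 3032 bases. With offsets for GC content and length, 948 genes passed against control in place of 437, and 581 against 0.001 to 1 µM in place of 438. The part of composition in the single gene results was not tested beyond these fits.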
